A study of Mus musculus with 8 samples.

Results

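Peaks near the ends of the mouse autosomes were examined for GLI1 and GLI2, zinc-finger transcription factors through which Hedgehog signaling reaches its target genes. A peak belonged to the centromere-near end when its centre lay between 3000000 and 5000000 in mm9 coordinates. It belonged to the telomere-near end when its centre lay in the last 2 Mb before the largest peak end of that chromosome over all 4 lists. The rule used positions only, and each end therefore comprised 19 windows of 2 Mb. In the centromere-near windows lay 2664 peaks and in the telomere-near windows 2833, together 5497 of the 173807 peaks of the 4 lists (3.16%). By list, both ends together held 1183 peaks for GLI1 replicate 1, 1720 for GLI1 replicate 2, 844 for GLI2 replicate 1 and 1750 for GLI2 replicate 2.

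The lists came from anti-FLAG ChIP-seq of female F1-2.1 mouse embryonic stem cells, a line with a Tet-on transactivator and a stable, doxycycline-regulated transgene for GLI1-3xFLAG or GLI2-3xFLAG. All cells grew on irradiated feeder fibroblasts and had received 1 µg/mL doxycycline and 100 nM SAG, a Smoothened agonist that turns the Hedgehog pathway on, for 72 hours before harvest as undifferentiated day 0 cells. Both groups thus share the agonist and the induction, and all values concern factors expressed from transgenes. Each factor had 2 ChIP libraries, which the labels call biological replicates, with a peak list each. Per the labels, GLI1 lists were made with a cutoff of 1e-4 and GLI2 lists with 1e-5. The first replicates had an unexplained setting s at 50, the second replicates at 20. Factor and cutoff, and replicate number and setting, can therefore not be told apart. Read depth is unknown, and the lists hold 26511 to 55741 peaks. No list from cells lacking the FLAG transgene was used here.

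GLI proteins are sequence-specific activators or repressors that usually act from enhancers and promoters of developmental genes. Mouse autosomes carry the centromere close to their tip, next to long arrays of satellite repeats, and reference builds stand in for most of that stretch with unread bases. The opposite tip ends in the telomere repeat, and the sequence before it is often rich in genes and in segmental duplications. No gene or sequence of mm9 was used here, so regions are named by position, counted from 1.

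The 4 lists differed in whether the centromere-near ends were denser or sparser in peaks than the rest of the same chromosomes. GLI1 replicate 1 lay below its rest, GLI2 replicate 2 above it, and the other lists close to it. GLI1 replicate 1 had 14.3 peaks per Mb (95% Poisson interval 13.1 to 15.6), against 17.0 in the rest of the same autosomes. GLI1 replicate 2 had 21.1 (19.7 to 22.6) against 21.9. GLI2 replicate 1 had 10.6 (9.57 to 11.7) against 10.6. GLI2 replicate 2 had 24.1 (22.5 to 25.7) against 19.3. The ratios of end to rest were 0.841, 0.965, 0.995 and 1.25 in this order, so that a single list lay above 1. Their mean on the log2 scale was 0.0022 ± 0.235 (SD, n = 4; two-sided exact sign-flip permutation p = 1; in the most extreme case 4 lists give 2 of 16 sign assignments, which cannot pass 0.05). GLI1 ratios lay below both GLI2 ratios, a difference of -0.305 in mean log2 ratio (exact permutation test, 2 of 6 assignments as extreme, the fewest that 2 lists against 2 allow). That difference was -0.143 without GLI2 replicate 2, -0.468 without GLI2 replicate 1, -0.207 without GLI1 replicate 1 and -0.107 against the adjacent 2 Mb in place of the rest. Intervals here and below cover counting error of peaks only.

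Pooled over autosomes, telomere-near ends were slightly denser than the rest in 3 of the 4 lists. Here GLI1 replicate 1 had 16.8 peaks per Mb (15.5 to 18.2) against 17.0, a ratio of 0.988. GLI1 replicate 2 had 24.1 (22.6 to 25.7) against 21.9, a ratio of 1.10. GLI2 replicate 1 had 11.6 (10.6 to 12.8) against 10.6, a ratio of 1.09, and GLI2 replicate 2 had 22.0 (20.5 to 23.5) against 19.3, a ratio of 1.14. The mean log2 ratio of 0.109 ± 0.0875 (SD, n = 4) did not pass the test (two-sided exact sign-flip permutation p = 0.25). Taken chromosome by chromosome, the end was denser on 8, 9, 12 and 14 of the 19 autosomes in the order of the lists, and the median ratios were 0.968, 0.957, 1.07 and 1.11. The mean log2 of these medians was 0.0340. Without chromosomes 4 and 7, left out after their values were seen, the pooled mean was 0.0348. The factors differed by -0.0958 in mean log2 ratio (GLI1 minus GLI2; exact permutation p = 0.667). The telomere-near ratio exceeded the centromere-near ratio in 3 of 4 lists, GLI2 replicate 2 being the exception, with a mean difference of 0.107 ± 0.164 on the log2 scale (SD, n = 4; exact sign-flip permutation p = 0.25). With the adjacent 2 Mb as the reference in place of the rest, the mean telomere-near log2 ratio turned to -0.118. The window runs up to a peak by construction, so it always holds at least 1 peak at its outer edge.

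**Figure D1:**
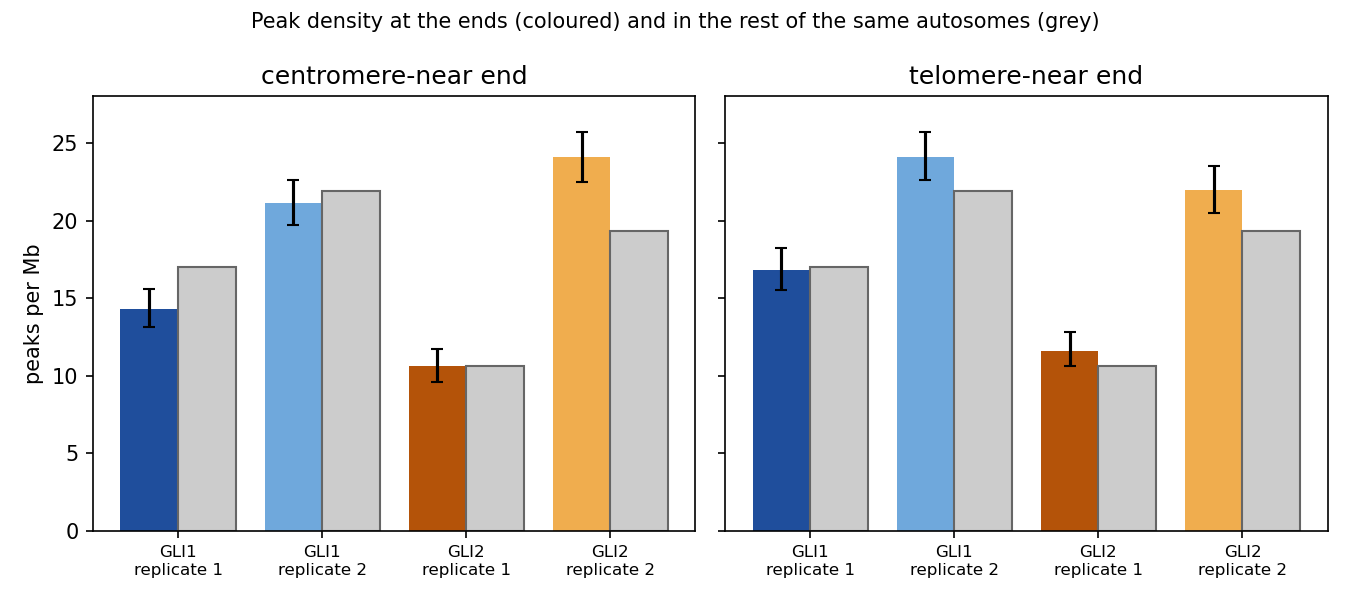
Peaks per Mb in each list at the centromere-near (left) and telomere-near (right) ends (coloured bars, with 95% Poisson intervals) and in the rest of the same 19 autosomes (grey bars). At the centromere-near end GLI2 replicate 2 stands above its rest (24.1 against 19.3) and GLI1 replicate 1 below it (14.3 against 17.0).

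The density was not level within the ends. In the outermost 200 kb of the centromere-near ends, GLI1 replicate 1 had 33 peaks over the 19 autosomes, 0.510 times the density of the rest (95% interval 0.351 to 0.717). GLI2 replicate 1 had 29 peaks there, a ratio of 0.718 (0.481 to 1.03). The replicate 2 lists had 86 peaks for GLI1 and 87 for GLI2, ratios of 1.03 (0.826 to 1.28) and 1.18 (0.949 to 1.46). Both replicate 1 lists, which share a setting, were thus the lower ones at this edge. At the telomere-near edge the order was another. GLI2 replicate 2 had 117 peaks in the last 200 kb, 1.59 times its rest (1.32 to 1.91), while the other 3 lists had ratios between 0.841 and 1.11. It also set the outer edge by its own peak on 7 autosomes, against 5, 6 and 2 for GLI1 replicate 1, GLI1 replicate 2 and GLI2 replicate 1. Its ratio without those peaks was not computed.

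Moving inward from the telomere-near edge, GLI1 replicate 2 departed from the other lists. Its ratio was 0.942 over the outer 1 Mb, 1.26 over the inner 1 Mb and 1.55 over the stretch from 2 to 4 Mb, where it had 1293 peaks, or 34.0 per Mb (32.2 to 35.9). In that stretch it exceeded the rest on 15 of 19 autosomes, and by more than 2-fold on chromosomes 2, 4, 9 and 15. The other lists had ratios of 1.11, 1.01 and 1.08 there. They exceeded the rest on 13, 11 and 12 autosomes, and none exceeded 2-fold on any autosome. Along the whole rest of GLI1 replicate 2, 5% of 2 Mb windows lay above 1.88 times the mean of their chromosome. The stretch is itself part of the rest it is divided by. The other GLI1 list, replicate 1, had 18.8 peaks per Mb (17.5 to 20.3) against 17.0 in its rest. Within 100 kb of the 2 Mb bound the lists had 24 to 40 peaks inside and 23 to 46 outside at the centromere-near ends, and 19 to 57 inside and 14 to 49 outside at the telomere-near ends.

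**Figure D2:**
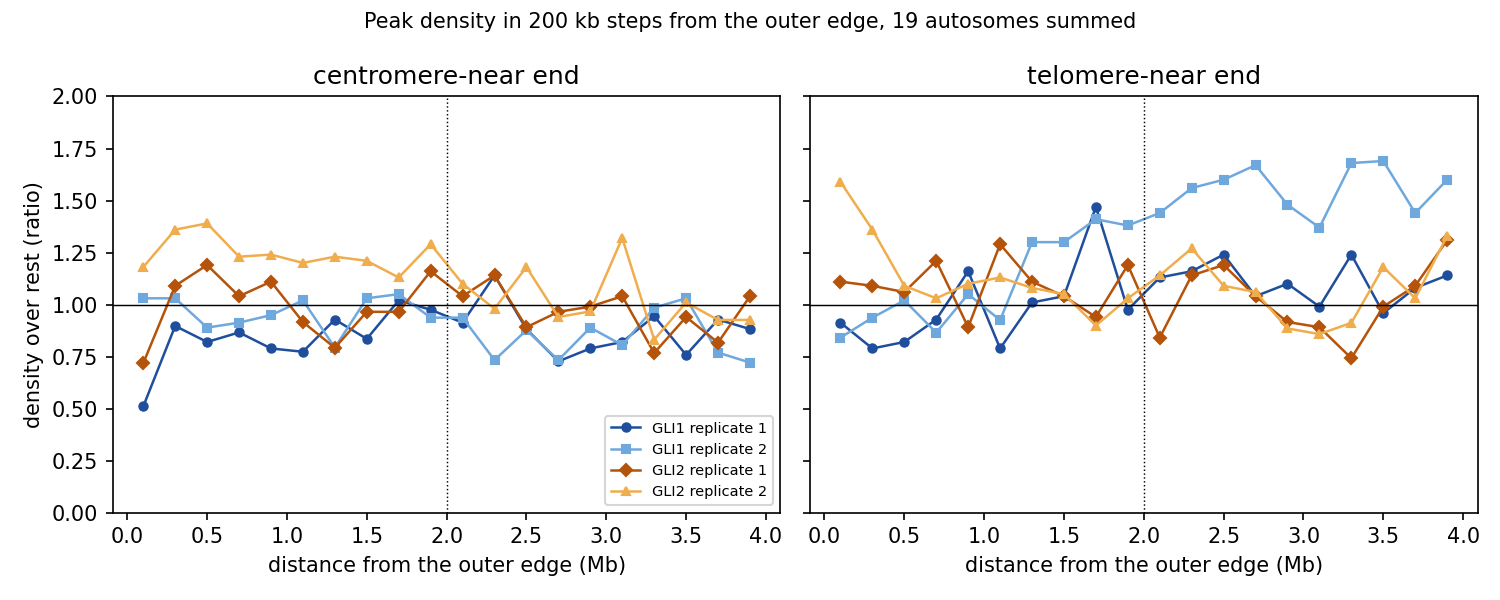
Peak density in steps of 200 kb from the outer edge, summed over 19 autosomes and divided by the density of the rest (ratio, 1 marked by a line), for the 4 lists; the dotted line marks the 2 Mb bound. GLI1 replicate 2 climbs inward from the telomere-near edge to 1.55 over the stretch from 2 to 4 Mb, and GLI1 replicate 1 starts at 0.510 at the centromere-near edge.

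Single chromosomes differed far more than the pooled values. At the centromere-near end, the ratio to the rest of the same chromosome was above 1 in all 4 lists on 3 autosomes (2, 11 and 19), below 1 in all 4 on 2 (3 and 14), and mixed on 14. At the telomere-near end it was above 1 in all 4 lists on 4 autosomes (4, 7, 9 and 15), below 1 in all 4 on chromosome 17, and mixed on 14. To set this against the variation along chromosomes, the rest was tiled into 1162 windows of 2 Mb, whose ratios to the mean of their chromosome had an SD of 0.288 to 0.449 by list. The centromere-near windows had SDs of 0.312 to 0.484 and the telomere-near windows of 0.230 to 0.555, the last being GLI1 replicate 2. Among the 2 Mb windows of its own chromosome, the centromere-near window of the median autosome stood at percentile 87.4 in GLI2 replicate 2, and at percentiles 34.7, 54.8 and 42.6 in GLI1 replicate 1, GLI1 replicate 2 and GLI2 replicate 1. The telomere-near window of the median autosome stood at percentiles 42.1, 55.9, 61.9 and 68.8 in the order of the lists. By definition, 5% of a list's tiles lie above its top limit and 5% below its bottom limit. Of the 19 centromere-near windows, 1, 0, 3 and 4 lay above the top limit in the order of the lists. Below the bottom limit lay 2, 1, 1 and 1. Of the 19 telomere-near windows 1, 2, 2 and 2 lay above, and 0 lay below in any list.

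The centromere-near end of chromosome 14 was nearly bare of peaks in every list. GLI1 replicate 1 had 2 peaks (95% Poisson interval 0.242 to 7.22), GLI1 replicate 2 had 8 (3.45 to 15.8), GLI2 replicate 1 had 1 (0.0253 to 5.57) and GLI2 replicate 2 had 9 (4.12 to 17.1). Densities were 0.0580, 0.201, 0.0483 and 0.240 times those of the rest of the chromosome, which had 10.4 to 19.9 peaks per Mb. How much of this stretch short reads can be placed in was not tested, so few peaks here do not show that the factors were absent. The first peak of any list began at 3650801, and 13 of 20 bins of 100 kb held no peak centre of any list. The scarcity went on inward: from 5 to 7 Mb the lists had 1, 5, 0 and 1 peaks in the same order. Elsewhere, only 2 further bins of the centromere-near ends were empty, so chromosome 14 made up most of the 15 empty bins of 380 (3.95%). In the telomere-near ends 1 of 380 bins was empty (0.263%), against 2.24% in the rest. Without chromosome 14, a choice made after its density was seen, the centromere-near ratios were 0.886, 1.00, 1.05 and 1.30.

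Chromosome 3 was the next lowest at the centromere-near end, with 12, 29, 14 and 32 peaks in GLI1 replicates 1 and 2 and GLI2 replicates 1 and 2. Its mean ratio was 0.610 ± 0.209 (SD, n = 4), followed by chromosome 1 at 0.817 ± 0.338, where GLI2 replicate 2 stood apart at 1.31. The highest centromere-near ends were those of chromosome 11 (mean ratio 1.52 ± 0.385), chromosome 7 (1.49 ± 0.585) and chromosome 19 (1.45 ± 0.344). On chromosome 11 the lists had 36, 64, 44 and 76 peaks, with ratios of 1.06 and 1.36 for GLI1 and 1.81 and 1.87 for GLI2. On chromosome 7 the GLI2 ratios of 2.12 and 1.82 likewise lay above the GLI1 ratios of 0.845 and 1.16. These chromosomes were picked for their values, and no test was made of them.

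At the telomere-near end, chromosome 7 was the densest, with a mean ratio of 1.69 ± 0.539 (SD, n = 4). Its last 2 Mb, from 150504001 to 152504000, held 52 and 85 GLI1 peaks and 31 and 38 GLI2 peaks. The ratios were 1.63, 2.41, 1.64 and 1.10, so that every list was above 1 and GLI1 replicate 2 was the highest. Chromosome 4 followed (1.47 ± 0.521), from 153607601 to 155607600, with 96 peaks in GLI1 replicate 2 and 43, 24 and 53 in the other lists. Its mean rested largely on GLI1 replicate 2, at 2.23 against 1.09 to 1.34. On chromosome 15, from 101410801 to 103410800, the ratios were closer together, at 1.25, 1.50, 1.73 and 1.21. The lowest telomere-near ends were those of chromosome 17 (0.774 ± 0.126), chromosome 10 (0.836 ± 0.254) and chromosome 1 (0.876 ± 0.255). Only chromosome 17 of these was below its rest in all lists, with ratios of 0.793, 0.599, 0.802 and 0.900.

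**Figure D3:**
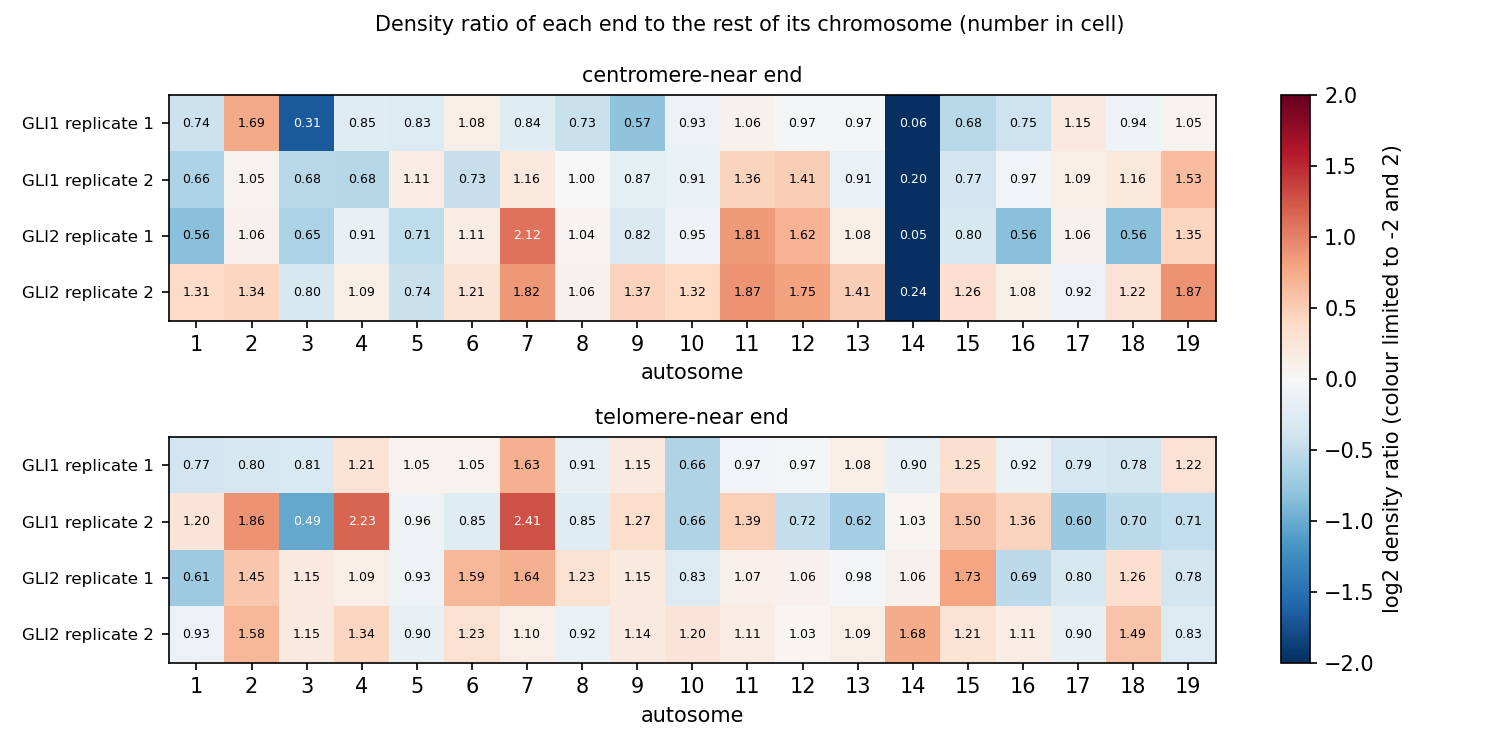
Density ratio of each 2 Mb end to the rest of its own chromosome, for 19 autosomes (columns) and 4 lists (rows); the number in a cell is the ratio and the colour its log2. The centromere-near end of chromosome 14 is dark in all rows (0.0483 to 0.240), and the telomere-near end of chromosome 7 is above 1 in all rows (1.10 to 2.41).

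Most end peaks were as narrow as peaks elsewhere. The median end peak of GLI1 replicate 1 spanned 1400 bp and that of each other list 1200 bp, at both ends and in the rest alike, with a floor of 1000 bp set by the lists. Mean widths at the centromere-near ends were 1479, 1482, 1447 and 1459 bp in the order GLI1 replicate 1, GLI1 replicate 2, GLI2 replicate 1 and GLI2 replicate 2. In the rest, weighted to the same chromosomes, they were 1437, 1363, 1382 and 1371 bp. The end was wider in 4 of 4 lists, with ratios of 1.03 to 1.09 and a mean log2 ratio of 0.0797 ± 0.0337 (SD, n = 4; two-sided exact sign-flip permutation test, 2 of 16 assignments as extreme, the fewest possible). The difference rested on the widest peaks. Without the widest 1% of each list the mean log2 ratio was -5.83e-04, and without chromosome 9 it was 0.0261. The ratios without chromosome 9 were 0.985 for GLI1 replicate 1, 1.07 for GLI1 replicate 2, 0.984 for GLI2 replicate 1 and 1.04 for GLI2 replicate 2. At the telomere-near ends the width ratios were 0.978, 1.02, 0.988 and 1.01, on average -0.0015 on the log2 scale (exact sign-flip permutation p = 0.875).

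Peaks of 3600 bp or more were few, yet commoner at the centromere-near ends than elsewhere in 3 lists. GLI1 replicate 2 had 24 of them among 803 peaks (2.99%, exact 95% interval 1.92 to 4.41), against 1.43% in the rest. GLI2 replicate 1 had 8 of 402 (1.99%, 0.863 to 3.88) against 0.690%, and GLI2 replicate 2 had 26 of 915 (2.84%, 1.86 to 4.14) against 1.17%. GLI1 replicate 1 had 5 of 544 (0.919%, 0.299 to 2.13) against 1.19%, so it did not share the excess. In GLI1 replicate 2, 12 of the 24 lay in the outermost 200 kb and 6 on chromosome 9. In GLI2 replicate 2, 6 of the 26 lay in the outermost 200 kb and 6 on chromosome 12. Without chromosome 9 the shares were 0.562, 2.34, 1.53 and 2.61%. At the telomere-near ends broad peaks made up 0.939, 2.07, 0.452 and 1.56%, against 1.19, 1.42, 0.668 and 1.12% in the rest, and every interval included the value of the rest.

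**Figure D4:**
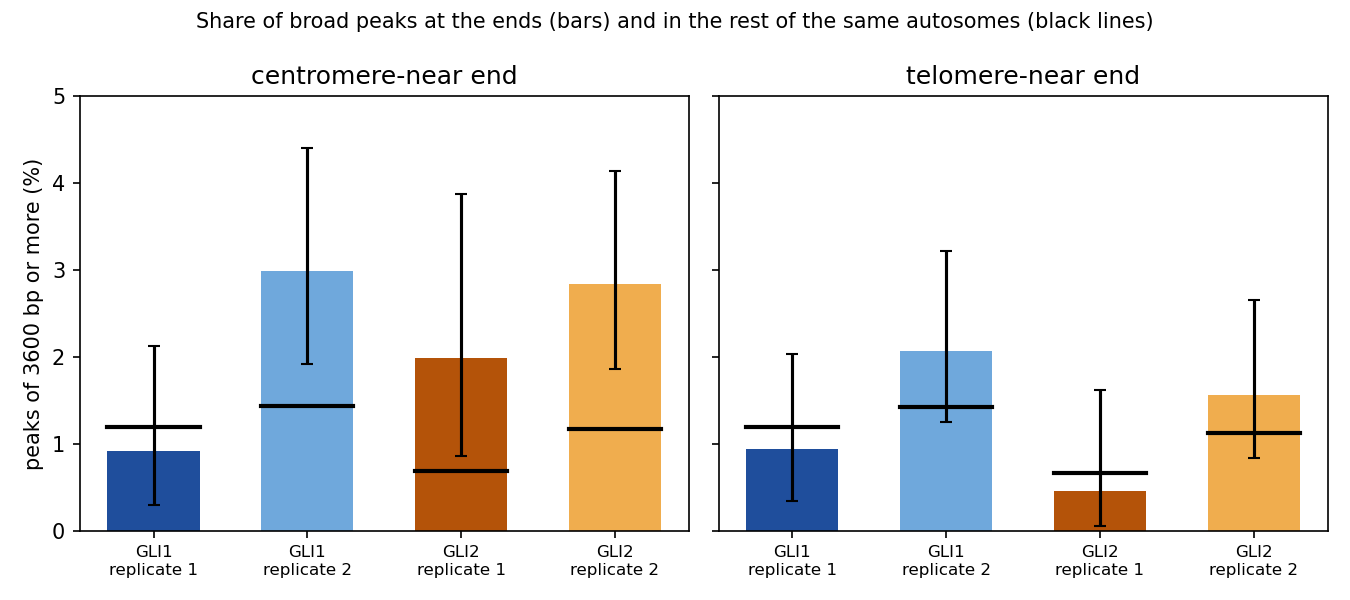
Share of peaks that were 3600 bp wide or more in each list (bars, with exact 95% intervals) at both kinds of end, and the share in the rest of the same autosomes (black lines). At the centromere-near end the bars of 3 lists exceed their lines, with GLI1 replicate 2 at 2.99% against 1.43%.

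Bases inside peaks followed number and width together. Peaks covered 2.12, 3.13, 1.53 and 3.51% of the centromere-near windows and 2.45, 2.98, 1.46 and 2.65% of the rest, ratios of 0.865, 1.05, 1.04 and 1.33. The mean log2 ratio was 0.0826 ± 0.253 (SD, n = 4; exact sign-flip permutation p = 0.625). In the telomere-near windows the covered shares were 2.37, 3.35, 1.58 and 3.04%, ratios of 0.967, 1.12, 1.08 and 1.15. Their mean log2 ratio was 0.108 ± 0.110 (SD, n = 4; exact sign-flip permutation p = 0.25). The median gap between neighbouring peaks of GLI1 replicate 1 was 37.8 kb at the centromere-near and 38.6 kb at the telomere-near ends, against 37 kb in the rest. In GLI1 replicate 2 it was 28.6 and 23.8 kb against 25.8 kb. In the GLI2 lists it was shorter than in the rest at both ends. These gaps were 47.8 and 50.2 kb against 59.4 kb in replicate 1, and 23.0 and 28.8 kb against 31.6 kb in replicate 2. Gaps across a window bound and stretches before a first peak were not counted. A shorter median gap is therefore not a higher density: GLI2 replicate 1 had a centromere-near density ratio of 0.995.

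The authors' deposited score, usable in the replicate 1 lists only, did not set the end peaks apart as a group. The sources used here give no unit for it. Median scores of GLI1 replicate 1 were 47.3 at both ends and 46.9 in the rest. In GLI2 replicate 1 they were 58.3 and 58.9 against 58.8. The top 10% by score of GLI1 replicate 1 held 9.19% (6.90 to 11.9) of its centromere-near and 10.3% (8.08 to 13.0) of its telomere-near peaks. For GLI2 replicate 1 the shares were 13.4% (10.3 to 17.2), against 10.3% in the rest, and 10.2% (7.52 to 13.4).

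Sharing between lists was judged by an overlap of at least 1 bp. Over all autosomes, 21.0% of GLI1 replicate 1 peaks met a peak of the other GLI1 replicate, and 16.2% of GLI1 replicate 2 peaks did. For GLI2 these shares were 35.0% in replicate 1 and 19.3% in replicate 2. Centromere-near peaks recurred in 144 of 544 cases (26.5%, exact 95% interval 22.8 to 30.4) in GLI1 replicate 1, against 20.9% in the rest of the same chromosomes. In GLI1 replicate 2 the count was 147 of 803 (18.3%, 15.7 to 21.2) against 16.2%, and in GLI2 replicate 1 it was 163 of 402 (40.5%, 35.7 to 45.5) against 35.3%. GLI2 replicate 2 went the other way, with 163 of 915 (17.8%, 15.4 to 20.5) against 19.5%. It is also the list with the most peaks at these ends (24.1 per Mb against 19.3 in the rest). The share of peaks that meet a partner list depends on the density of that list, which was not adjusted for. The mean difference was 2.79 ± 3.35 percentage points (SD, n = 4; two-sided exact sign-flip permutation p = 0.25), and both lists of a factor share their overlaps, so the 4 values are not independent. It was 1.77 points over the GLI2 lists alone and 3.81 over the GLI1 lists alone. By width class the reference was the pooled rest, not weighted by chromosome. Among peaks of 1400 to 1800 bp, 28.4, 25.6, 46.1 and 21.3% of the centromere-near ones recurred in the order of the lists. In the rest 23.2, 18.6, 37.8 and 22.6% did. The 1200 bp peaks recurred in 27.5, 16.7, 28.4 and 11.8% of cases, against 19.1, 15.4, 33.5 and 16.4%, so that both GLI2 lists were below their rest in this class.

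Telomere-near peaks recurred about as often as the rest. The shares were 21.1% (18.0 to 24.5) against 20.9% in GLI1 replicate 1 and 14.7% (12.5 to 17.2) against 16.0% in GLI1 replicate 2. In GLI2 they were 37.8% (33.2 to 42.5) against 34.8% in replicate 1 and 20.0% (17.3 to 22.9) against 19.3% in replicate 2. The mean difference was 0.637 ± 1.76 percentage points (SD, n = 4; exact sign-flip permutation p = 0.625).

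Sharing across factors was compared between lists of the same replicate number, which share a setting. Over all autosomes it came to 8.38% of GLI1 replicate 1 peaks and 13.9% of GLI1 replicate 2 peaks. Of GLI2 peaks it came to 13.4% in replicate 1 and 15.9% in replicate 2. At the centromere-near ends GLI1 replicate 2 met its GLI2 partner in 149 of 803 cases (18.6%, 15.9 to 21.4), against 14.2% in the rest. GLI1 replicate 1 did so in 9.93% (7.55 to 12.8) against 8.52%, and the GLI2 lists in 13.4% against 13.6% and 16.2% against 15.9%. Differences averaged 1.49 ± 2.05 percentage points (SD, n = 4; exact sign-flip permutation p = 0.25). That mean was 0.639 points over the replicate 1 lists alone and 2.34 over the replicate 2 lists alone. It was 0.222 with ends of 3 Mb and 3.78 against the adjacent 2 Mb. The telomere-near shares were 8.92, 15.3, 12.9 and 16.8%, on average 0.688 ± 0.972 points above the rest (SD, n = 4; exact sign-flip permutation p = 0.375). These 4 values are not independent either. Partner density was again not adjusted for. GLI2 replicate 2, the partner of GLI1 replicate 2, was denser than its rest at both ends (24.1 and 22.0 peaks per Mb against 19.3).

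**Figure D5:**
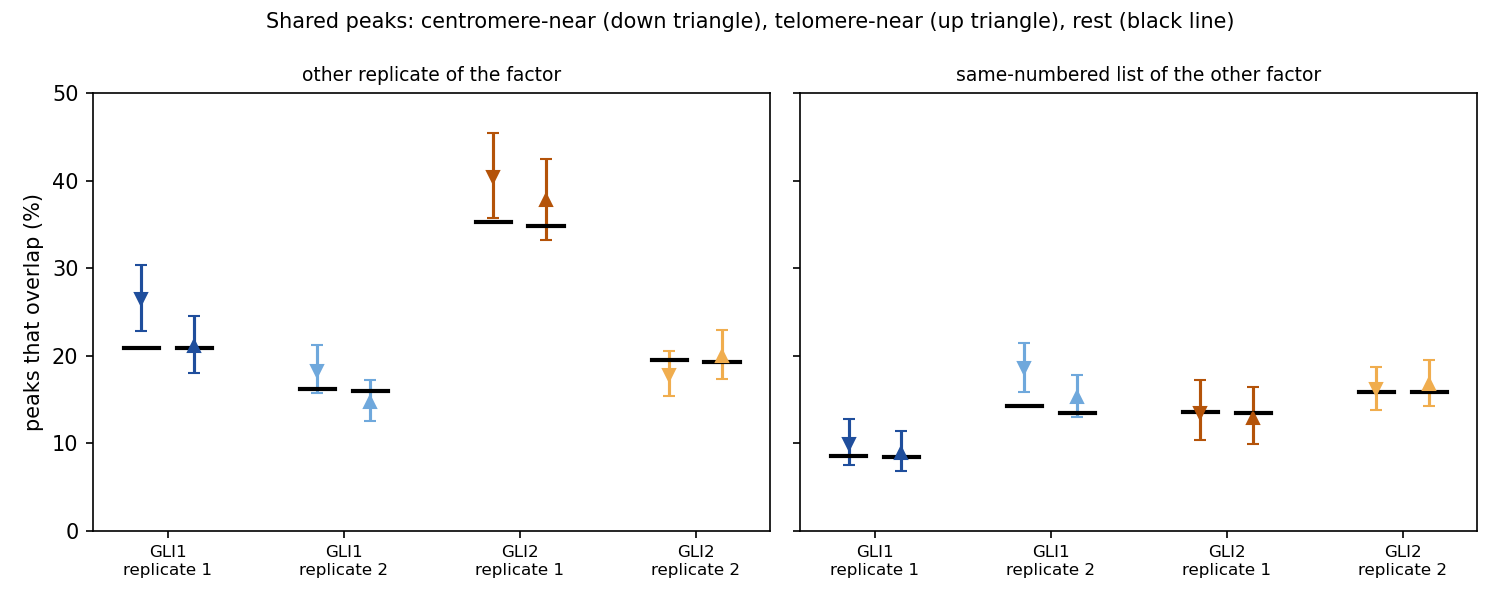
Percent of each list's end peaks that overlap a peak of the other replicate of the factor (left) or of the same-numbered list of the other factor (right), with exact 95% intervals; down triangles are centromere-near, up triangles telomere-near, and black lines the rest of the same autosomes. Centromere-near recurrence lies above its line in 3 lists, by up to 5.53 percentage points, and below it in GLI2 replicate 2.

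Overlapping peaks of the 4 lists were then merged into regions. Of 2123 centromere-near regions, 79.0% had a peak in a single list, 17.3% in 2, 2.97% in 3 and 0.659% (14 regions; exact 95% interval 0.361 to 1.10) in all 4. Of 2291 telomere-near regions the shares were 80.5, 15.9, 2.97 and 0.567% (13 regions; 0.302 to 0.968). Over all autosomes, 2.55% of regions had a peak in 3 lists and 0.437% in all 4, values inside both intervals for all 4 lists. Shares of regions with both lists of a factor and no list of the other factor were also near their background. Regions with both GLI1 lists and no GLI2 list made up 4.75% of all autosomal regions, 4.71% (3.85 to 5.70) of the centromere-near and 4.02% (3.25 to 4.90) of the telomere-near ones. Regions with both GLI2 lists and no GLI1 list made up 4.80% of all, 5.56% (4.62 to 6.62) and 5.15% (4.28 to 6.14). Both replicate 2 lists and no replicate 1 list had a peak in 4.38% (3.55 to 5.34) of centromere-near and 3.71% (2.97 to 4.57) of telomere-near regions. The share was 3.36% of regions in the rest. For both replicate 1 lists and no replicate 2 list the shares were 0.848% (0.503 to 1.34) and 0.917% (0.568 to 1.40), against 1.23% in the rest.

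Centromere-near regions found in all 4 lists came in pairs on 7 autosomes (4, 6, 9, 11, 12, 17 and 19). The 2 widest had their centres in the first 50 kb of the chromosome 9 window. A region from 3014401 to 3039000, 24600 bp long, was a single peak in GLI1 replicate 1, GLI2 replicate 1 and GLI2 replicate 2, and 4 separate peaks of up to 6800 bp in GLI1 replicate 2. Beside it, from 2999401 to 3011400, each list had a single peak of 11800 or 12000 bp. In the first 50 kb of that chromosome, peaks covered 73.2, 62.0, 72.8 and 72.8% of bases in the order of the lists. The outer bounds were the same in all lists at the start (2999401) and at 3038800 or 3039000 at the far side. Replicate 1 scores were 408 and 277 for GLI1 and 485 and 343 for GLI2.

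The third widest, on chromosome 12 from 3106801 to 3111000, held the highest-scoring end peak of both replicate 1 lists. From 3109001 to 3111000, in identical bounds, the score was 1111 in GLI1 replicate 1 and 1208 in GLI2 replicate 1. In the replicate 2 lists the peak was 1800 bp wide for GLI1 and 4000 bp for GLI2. How short reads are placed here and in the chromosome 9 regions was not tested. Wide or high-scoring peaks there therefore do not show strong binding. The other regions scored far lower. On chromosome 4 from 3791801 to 3795600, the scores were 45.8 for GLI1 and 84.8 for GLI2. On chromosome 19 a region from 3594801 to 3598600 scored 42.1 and 89.6, and one from 4988201 to 4992000, just inside the bound, 99.8 and 269. Chromosome 11 had regions from 3053601 to 3056600 (52.7 and 101) and from 3038001 to 3040000 (46.5 and 94.2), both within 60 kb of the edge. The 10 widest ended with chromosome 12 from 4280201 to 4282400 (47.9 and 59.8) and chromosome 6 from 4873201 to 4875000. The latter was the only region of the 10 with a higher score for GLI1 (85.3) than for GLI2 (57.0). Score cutoffs differ between the lists, so these scores rank peaks within a list and do not compare factors.

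Telomere-near regions found in all 4 lists lay on 8 autosomes and were at most 5400 bp wide, with a median of 3600 bp. The median was 2600 bp for the centromere-near ones and 1800 bp for the 561 such regions in the rest. These medians rest on 13 telomere-near and 14 centromere-near regions, and a merged width takes in the widest peak of any list. Mean widths of telomere-near peaks themselves were 0.978 to 1.02 times those of the rest. The highest-scoring telomere-near region was on chromosome 4 from 155231201 to 155234800, 375 kb from the edge. Its replicate 1 scores of 366 for GLI1 and 337 for GLI2 were the highest of any telomere-near peak in either list. The widest lay on chromosome 5 from 151461001 to 151466400, where a GLI2 replicate 1 peak spanned all 5400 bp (score 83.5) and the GLI1 peaks were 1400 and 1000 bp wide. On chromosome 18, the region from 89549201 to 89553600 was set by a GLI1 replicate 1 peak of 4000 bp with a score of 47.1. A second region of chromosome 4, from 153906401 to 153910600, had peaks of 4200 and 3600 bp for GLI2 and of 1400 bp in both GLI1 lists. Chromosome 16 had regions from 97563001 to 97566800 and from 98033801 to 98037600, both 3800 bp wide. Others among the 10 widest were chromosome 5 from 150682401 to 150686000, chromosome 8 from 130546601 to 130549400 and chromosome 19 from 60027601 to 60029800. The narrowest of these was on chromosome 2 from 180265001 to 180266800, with scores of 53.2 and 76.0. Regions in all 4 lists reached 105000 bp in the rest, so widths like those at the outer edge of the chromosome 9 window also occurred away from the ends.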

How the data were processed

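Per the submitters' processing notes, bases were called with CASAVA 1.7 and reads aligned with BWA to mm9. The sources used here do not name the peak caller. The deposited lists hold positions and the authors' score per peak, called per library and not on pooled replicates. Starts and ends are multiples of 200 bp. The score is 0 for nearly all replicate 2 peaks and was used for replicate 1 only. Sample titles gave the groups and the list of each ChIP library.

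Density, covered share, mean width and sharing of end peaks were computed per list and divided by, or set against, the rest of the same chromosomes. Rest densities and covered shares were averaged over the 19 autosomes. Rest mean widths, shares of broad peaks and overall shares of overlapping peaks were weighted to the chromosome makeup of the end peaks. Recurrence by width class, shares of merged regions and gaps between peaks used the pooled rest without weighting. The list is the replicate, so tests are two-sided exact permutation tests over 4 lists on log2 ratios or percentage points. The p-values measure only the spread between these lists. Intervals are 95% Poisson or Clopper-Pearson. The code was tested on simulated lists with known densities. The design and lists of named items were chosen with earlier results of these data known. Named were the regions in all 4 lists (10 widest per end), the 3 highest and 3 lowest chromosomes per end, and the top-scoring peak of each replicate 1 list. Genes, sequences and GLI motifs were not analysed here. Alternatives changed the end size, reference, overlap, score minimum and lists, and those without chromosome 14 or chromosomes 4 and 7 were added after seeing the data. Python 3.11.15, numpy 2.4.6, pandas 2.3.3, scipy 1.17.1 and matplotlib 3.10.9 were used.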

Additional observations from a re-analysis of the deposited data

Results flagged for a closer look

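In 5 of 38 end windows both GLI1 lists lay on the other side of 1 from both GLI2 lists, with GLI2 the denser in all 5 (13.2% of the windows). Of the 1162 windows of 2 Mb that tile the rest, 115 split in this way (9.9%), with GLI2 the denser in 67 (5.77%) and GLI1 in 48 (4.13%). These differences were not tested, and factor and cutoff cannot be told apart. Ratios to the rest of the same chromosome follow in the order GLI1 replicate 1, GLI1 replicate 2, GLI2 replicate 1 and GLI2 replicate 2. The telomere-near end of chromosome 18 had 0.775, 0.698, 1.26 and 1.49. That of chromosome 3 had 0.806, 0.494, 1.15 and 1.15, and that of chromosome 12 had 0.969, 0.716, 1.06 and 1.03. Among centromere-near ends, chromosome 13 had 0.970, 0.910, 1.08 and 1.41. Chromosome 8 had 0.732, 1.00, 1.04 and 1.06, where the second value lay barely below 1.

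Chromosome X was outside the autosomes compared, and its ends also held peaks. The telomere-near 2 Mb held 23, 29, 14 and 24 peaks in the same order of lists, 0.713 to 0.996 times the density of the rest of X. The centromere-near 2 Mb held 5, 19, 1 and 18 peaks, with ratios of 0.201, 0.530, 0.0711 and 0.535. All but the single peak of GLI2 replicate 1 were above the 3 that a count of 0 allows.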

How the results depend on the processing

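Of 170 comparisons of an alternative with the values reported, over 13 results, 147 kept their direction and 23 reversed. These are not separate checks. For sharing, leaving out either list of a pair gave the same value, and the replicate block cannot change the value. Centromere-near density (0.0022 ± 0.235) and telomere-near mean width (-0.0015 ± 0.0281, both SD) were small beside their spread, so their direction means little. No p passed 0.05 under any setting, since 2 of 16 sign assignments is the least that 4 lists allow. Results are mean log2 ratios or percentage points, and the cause of a reversal was not tested.

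Centromere-near density turned to -0.0069 with ends of 1 Mb, -0.0248 with 3 Mb, -0.0129 without the widest 1% of each list and -0.0073 as the median over autosomes. It ranged from -0.103 to 0.0859 when lists were left out in turn, the lowest being without GLI2 replicate 2. Covered share there turned to -0.0139 without the widest 1%, and ranged from -0.0259 (without GLI2 replicate 2) to 0.180. Mean width turned to -5.83e-04 without the widest 1%.

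Telomere-near density and covered share turned to -0.118 and -0.144 against the adjacent 2 Mb. Mean width turned to 0.0094 with ends of 3 Mb and ranged from -0.0117 to 0.0087 with lists left out. Recurrence turned to -1.19 points against the adjacent 2 Mb, -0.187 with a reciprocal overlap of 50% and -0.0492 with peaks set to 500 bp. It was -0.544 over the GLI1 lists alone and 1.82 over the GLI2 lists alone. Sharing with the other factor turned to -0.474 with ends of 1 Mb and -0.523 without chromosomes 4 and 7. It was -0.0159 over the replicate 1 lists alone and 1.39 over the replicate 2 lists alone. GLI1 minus GLI2 turned to 0.0570 with ends of 3 Mb.

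At the centromere-near ends recurrence was 1.77 points over the GLI2 lists alone and 3.81 over the GLI1 lists alone. Sharing with the other factor was 0.639 over the replicate 1 lists alone and 2.34 over the replicate 2 lists alone.

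With the replicate number as a block, GLI1 minus GLI2 is the same by construction, at -0.305 (centromere-near) and -0.0958 (telomere-near). Only its test differs, with an exact sign-flip permutation p of 0.5 at each end, the smallest that 2 pairs allow. Over 1162 windows, deviations of same-numbered lists correlated at 0.236, and lists of the same number also share the unexplained setting s. Read depth is unknown.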
